A study of Mus musculus with 8 samples.

Results

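The regions described here are the distal open-chromatin peaks found in Spata7 knockout (KO) mouse retina and absent from the peak list of wild-type (WT) retina. The members were chosen by the presence of a peak in these lists, a measured value: a peak was taken when the KO list annotated it as distal and not as promoter and when it overlapped no WT peak by 1 bp or more. There were 32980 such KO-only distal peaks among 71929 distal peaks and 91130 peaks of any kind in the KO list. The peaks of both lists numbered 147927. Chromatin was profiled by single-cell ATAC sequencing of retinal nuclei on the 10x Chromium platform, with 1 library from WT C57BL6/J mice at 7 months and 1 library from Spata7 mutant mice at 6 months. RNA was profiled by single-cell sequencing on the ICELL8 nanowell platform, with 1 library per genotype at 1, 3 and 6 months. All mice were male, per the labels, and the labels do not give how many animals entered a library. Each ATAC list pools all nuclei of its library, carries no peak height, and comes without the number of nuclei or the depth. For that reason genotype, age, depth and the mix of cells cannot be told apart in any comparison of the 2 lists, and all counts of peaks are descriptions of these 2 libraries.

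In ATAC sequencing a transposase cuts DNA that is free of nucleosomes, so a peak marks accessible chromatin. Peaks far from gene starts include enhancers, the elements that carry most of the difference in open chromatin between cell types, whereas promoters are open in many cell types alike. Spata7 encodes a protein of the photoreceptor connecting cilium, and its loss causes photoreceptor degeneration in mouse and human retina. Rod photoreceptors are the most numerous cells of the mouse retina, and their nuclei have an inverted architecture with compact heterochromatin at the centre.

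Some members lie where the RefSeq tables hold sequence, and these show what a KO-only distal peak can cover. Of 32851 RefSeq gene-start windows (assembly GRCm38.p6, from 250 bases before to 50 after a start), 398 overlapped 346 members and 106 lay wholly inside one. Such a peak is called distal because the deposited annotation places it away from the start it uses, while RefSeq holds another start there. For printing, windows wholly inside a peak were kept where they belonged to the very gene the peak was annotated to, with a single window per peak. Not every chromosome entered this choice. It left 15 windows, which is not a count of all such cases among the 398. The 250 bases before the start are printed for the 5 of these with the widest peaks, 5′ to 3′ on the gene's strand, with any match to the 12 motifs searched in capitals.

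Elmo1 (chr13:20472740-20472989, plus strand): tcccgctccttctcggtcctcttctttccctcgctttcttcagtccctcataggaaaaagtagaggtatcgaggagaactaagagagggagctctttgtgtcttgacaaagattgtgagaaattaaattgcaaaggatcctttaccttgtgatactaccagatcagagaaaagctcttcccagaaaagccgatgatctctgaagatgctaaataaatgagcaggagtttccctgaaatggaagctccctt

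Mtmr2 (chr9:13765704-13765953, plus strand): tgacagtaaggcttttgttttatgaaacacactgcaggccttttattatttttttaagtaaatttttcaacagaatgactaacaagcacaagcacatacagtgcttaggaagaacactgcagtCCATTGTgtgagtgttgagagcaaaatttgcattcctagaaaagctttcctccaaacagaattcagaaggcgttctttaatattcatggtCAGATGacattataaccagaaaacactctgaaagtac

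Dlg2 (chr7:92234720-92234969, plus strand): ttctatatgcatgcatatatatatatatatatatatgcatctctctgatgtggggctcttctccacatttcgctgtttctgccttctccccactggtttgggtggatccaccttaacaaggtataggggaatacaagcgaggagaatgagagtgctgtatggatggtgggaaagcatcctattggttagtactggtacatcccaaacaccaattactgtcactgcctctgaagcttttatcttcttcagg

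Tle6 (chr10:81597368-81597617, minus strand): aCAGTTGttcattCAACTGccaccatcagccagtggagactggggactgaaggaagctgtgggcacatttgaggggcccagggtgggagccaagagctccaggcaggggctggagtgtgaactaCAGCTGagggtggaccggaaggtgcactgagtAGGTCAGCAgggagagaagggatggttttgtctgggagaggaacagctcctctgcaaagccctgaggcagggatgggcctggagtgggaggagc

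Sall1 (chr8:89043513-89043762, minus strand): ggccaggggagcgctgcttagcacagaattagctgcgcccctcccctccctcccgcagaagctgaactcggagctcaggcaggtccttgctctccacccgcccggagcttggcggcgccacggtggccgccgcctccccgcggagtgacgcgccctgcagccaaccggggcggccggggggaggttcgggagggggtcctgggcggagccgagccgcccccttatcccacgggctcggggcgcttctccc

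The Elmo1 peak (chr13:20471696-20475022) spanned 3327 bp, and Elmo1 encodes an engulfment and cell motility adaptor that activates Rac. The peaks at the windows of Mtmr2, a phosphoinositide phosphatase, and Dlg2, a postsynaptic scaffold, spanned 1551 and 1496 bp. The peak at Tle6, a Groucho family member, spanned 1354 bp, and its window held 1 nuclear receptor half-site, 3 E-boxes and 1 MAF/NRL half-site, the last overlapping the half-site for nuclear receptors. The peak at Sall1, a zinc finger repressor, spanned 1134 bp, and its window held no match. The motifs were searched on both strands in all windows, as CRX/OTX TAATCC, AP-1 TGANTCA, MEF2 (CTA and TAG, 4 bases apart), nuclear receptor half-site AGGTCA, CTCF (CCA, AG and GGC, with 2 bases between each), E-box CANCTG, MAF/NRL TGCTGAC, LIM homeodomain TAATTA, PU.1/ETS AGGAAGT, SOX ACAATGG, ONECUT ATCGAT and the NFI dyad (TTGGC and GCCAA, 5 bases apart). The nuclear receptor half-site was in 21.1% of the 398 windows that overlapped members, in 16.2% of the 1068 that overlapped shared distal peaks and in 16.3% of all windows. AP-1 letters were in 10.8%, 8.33% and 7.81%. The CTCF core was in 1.51% of the windows with members, in 6.74% of those with shared peaks and in 2.43% of all. CRX/OTX letters, the motif of the main photoreceptor homeodomain factors, were in 7.29%, 9.93% and 7.06%. A match describes letters only.

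Of 1005 miRNA hairpins in the RefSeq table, 13 overlapped members and 10 lay wholly inside. The miRNAs printed here were picked after the overlaps were seen, because their hairpins lie wholly inside and their names are widely known. The seed, bases 2 to 8, is in capitals, and no 2 of these seeds are alike.

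mmu-miR-137-3p: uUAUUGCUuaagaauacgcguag

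mmu-miR-128-3p: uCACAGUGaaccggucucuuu

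mmu-miR-34b-5p: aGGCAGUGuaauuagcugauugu

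mmu-miR-196b-5p: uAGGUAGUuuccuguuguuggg

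The Mir137 hairpin lies in chr3:118433727-118434002, a member annotated to Dpyd, and miR-137 is known from neurons. The Mir128-2 hairpin lies in chr9:112118283-112118832 within Arpp21, its known host gene, and miR-128 is likewise abundant in neurons. Mir34b lies in chr9:51103224-51104158, and the miR-34 family is a known target of p53. Mir196b lies in chr6:52229037-52230910, a peak of 1874 bp annotated to Hoxa9 in a cluster of homeobox genes. The RNA tables count 3′ ends of longer transcripts, so no level of these miRNAs was available.

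The members made up 45.9% of the distal KO peaks (95% exact binomial interval 45.5 to 46.2%, which covers counting error only). The reverse share was far lower: 3259 of 43214 distal WT peaks, 7.54%, overlapped no KO peak. The KO list is longer by itself, with 91130 peaks against 56797. Among KO peaks annotated as promoter, 1424 of 13887 (10.3%) overlapped no WT peak, and among intergenic ones 4174 of 5314 (78.5%) did. Among WT peaks 0.282% of promoter peaks and 3.19% of intergenic peaks were absent from the KO list, both below the 7.54% of distal ones. When the KO list was limited to its widest peaks, as many as the WT list holds, 9716 members were left, or 23.6% of the distal peaks.

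Members were narrow. Their median width was 348 bp (quartiles 221 and 459 bp), against 624 bp (466 and 956 bp) for the 38949 distal KO peaks that overlapped a WT peak and 251 bp (118 and 344 bp) for WT-only distal peaks. Members under 50 bp made up 6.31% and those of 1 kb or more made up 2.43%, against 0.670% and 23.3% of the shared peaks. The KO-only share fell from 88.9% of distal KO peaks under 50 bp through 85.3%, 59.9% and 24.3% to 8.10% of those of 1 kb or more. Together the members covered 12.1 Mb, and the shared peaks covered 32.6 Mb. Width was the only size measure in the lists, so a weak peak and a narrow one cannot be told apart.

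Members also lay farther from gene starts. The deposited distance is signed, positive downstream of the start, and is 0 also where a peak overlaps the body of the gene. Over the 31478 members with a distance other than 0 its median size was 33391.5 bp (quartiles 12301 and 75864 bp), against 21158.5 bp for shared distal peaks and 20255 bp for WT-only ones. The remaining 1502 members had a distance of 0 alone. The KO-only share was 39.7% within 5 kb of a start, 37.1% from 5 to 20 kb, 43.9% from 20 to 50 kb, 52.3% from 50 to 100 kb and 62.3% from 100 to 200 kb. Side and placement did not set members apart from shared peaks. Of members 61.8% lay downstream of the start and 70.1% within the span of a RefSeq gene. For shared peaks these were 61% and 70.3%, and for WT-only distal peaks 66.5% and 79.9%. Among autosomes the KO-only share ran from 38.9% on chromosome 11 to 52.2% on chromosome 16, and it was 41.2% on X.

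**Figure D1:**
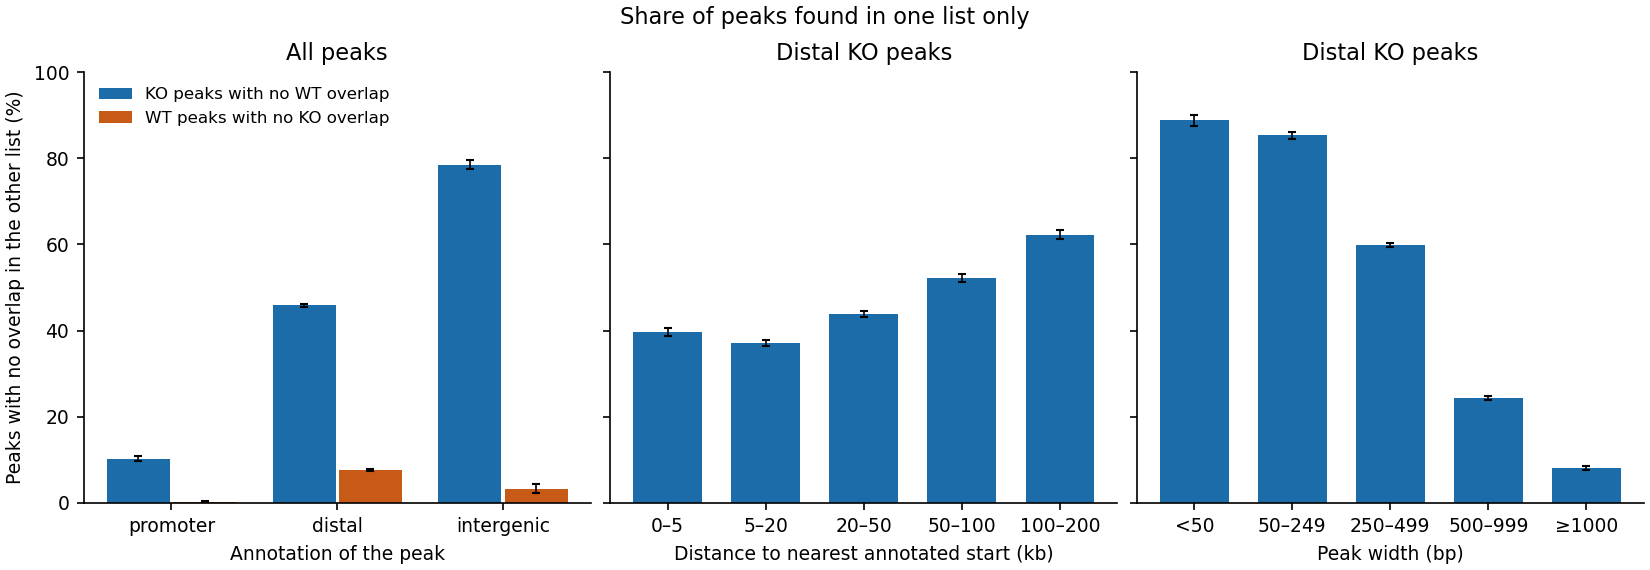
Percent of peaks absent from the other list, by annotation in both lists, and KO-only percent of distal KO peaks by distance to the gene start and by width, with exact 95% intervals. Promoter peaks are at 10.3% and distal ones at 45.9% in the KO list, and the share falls with width from 88.9% to 8.10% and is highest, at 62.3%, from 100 to 200 kb.

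Few members lay within 500 bp of a WT peak. The median gap to the nearest WT peak was 11472 bp (quartiles 3747.75 and 38260.5 bp), and 192 members (0.582%) lay within 500 bp of one. Within 5 kb lay 31.2% and within 50 kb lay 79.4%. For WT-only distal peaks the median gap to the nearest KO peak was 3010 bp, but the KO list is the longer one. At the edge of the rule, the nearest members were chr9:110435626-110435790 near Klhl18 and Ngp, which touched a WT peak with a gap of 0 bp, and chr2:60080930-60081000 of Baz2b and chr1:136153755-136154094 of Kif21b, each 2 bp away. Just outside it, distal KO peaks of 1 bp that overlapped a WT peak by that 1 bp lay at chr13:107100296 (Kif2a), chr13:99477076 (Map1b) and chr18:39688805 (Pabpc2). The widest member, chr1:88252161-88268072, spanned 15912 bp and was annotated to Mroh2a, at a distance of 0 bp, and to Hjurp, and the next, chr4:3080235-3084265, spanned 4031 bp. In 500-kb bins the median was 6 members, and 4099 of the 4815 bins with a KO peak held at least 1. The densest bins held 42 members each, at chr12:99000001-99500000 (Foxn3 and Ttc8; 65 distal KO peaks and 29 WT peaks) and chr14:25500001-26000000 (Zmiz1; 58 and 21).

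The mutated gene itself had no member. The WT list held 5 peaks annotated to Spata7, among them chr12:98627709-98628939 over its start, and the KO list held 3, none of them there. Spata7 RNA over all wells was 26.1, 20.2 and 32.2 CPM (counts scaled to a library's total reads) in the WT libraries at 1, 3 and 6 months and 4.07, 1.38 and 3.59 CPM in the KO libraries. The genotypes did not overlap.

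A peak was counted once for each gene it was annotated to as distal, and 12.2% of members had 2 or more genes. Of 17837 genes with a peak, 10665 had a member, 4033 of them just 1, with a median of 2, and 695 genes had 10 or more. The highest count, 126 members of 354 distal KO peaks, belonged to AC114005.5, an identifier found neither in RefSeq nor in the RNA tables. Its members spread over 4.35 Mb of chromosome 8 and none was annotated to it alone. Next came Fgfr2, a fibroblast growth factor receptor, with 91 of 191, spread over 3.03 Mb although the RefSeq gene spans 104 kb. Only 6 Fgfr2 members lay inside the gene and 11 were annotated to it alone.

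For the leading genes below them that are in RefSeq, between 18 (Zfp608) and 46 (Nrxn3) members lay inside the gene. Gpc6, a glypican that promotes synapse formation, had 48 members among 51 distal KO peaks, 44 of them inside its span of 1054.61 kb, and 3 distal WT peaks. Nrxn3, a presynaptic neurexin, had 47 of 56 against 9 distal WT peaks. Rora, an orphan nuclear receptor, had 47 of 76 against 32. The forkhead repressor Foxn3 had 46 of 68 (24 distal WT peaks), the homeodomain factor Zfhx3 45 of 48 (4), the teneurin adhesion gene Tenm4 45 of 57 (13) and the Arf GTPase activator Agap1 45 of 81 (38). Ntm, an IgLON adhesion gene, had 45 of 88 against 47. The coactivator Zmiz1 had 43 of 66, the repressor Zbtb20 had 42 of 58, Auts2 had 39 of 47 and the scaffold gene Frmd4a had 39 of 50. Tcf4, a basic helix-loop-helix factor, had 37 of 53 and Nckap5 had 37 of 57. Cacna2d3, an auxiliary subunit of voltage-gated calcium channels, had 36 of 39 against 3 distal WT peaks, and the receptor phosphatase Ptprd had 36 of 45 against 9. The other 2 of the 20 were Zfp608, with 36 of 45, and RP24-559D1.1, another identifier without an RNA row, with 38 of 95, of which 3 were annotated to it alone. Counting only peaks annotated to a single gene, 478 genes had 10 or more members and 16 of the 20 were again among the leading 20.

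The widest members of the leading genes were modest. They were chr8:120231298-120233391 of AC114005.5 (2094 bp, 1313 bp from a WT peak) and chr7:131920958-131922091 of Fgfr2 (1134 bp, gap 38363 bp). For Gpc6 it was chr14:117266859-117268282 (1424 bp), whose nearest WT peak lay 339640 bp away. Nrxn3 had chr12:88726149-88727222 (1074 bp) and Rora had chr9:68684547-68685892 (1346 bp).

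**Figure D2:**
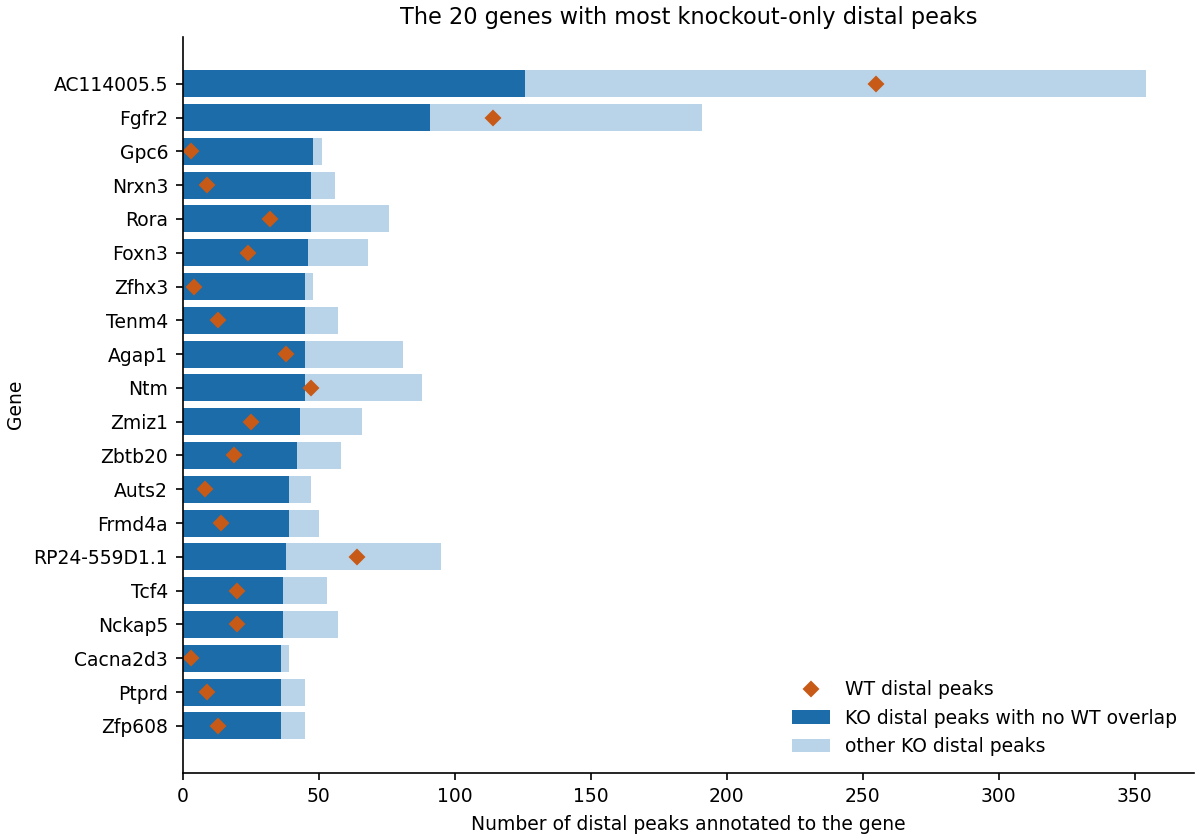
Number of distal KO peaks that are KO-only or shared, and of distal WT peaks, for the 20 genes with the most members. Gpc6 (48 of 51), Zfhx3 (45 of 48) and Cacna2d3 (36 of 39) have almost no distal WT peak, whereas Ntm and Agap1 have 47 and 38.

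Long genes held more members. The median RefSeq span was 13.9 kb for annotated genes with no member, then 20.2, 37.4 and 87.4 kb, and 251 kb for genes with 10 or more. A share takes out part of that. Among the 2283 genes with at least 10 distal KO peaks the median KO-only share was 46.4% (quartiles 30.0 and 64.3%). It was 90% or more in 128 genes and 10% or less in 90 genes. All distal peaks were members in 39 genes, and the genes with the most peaks at either end are named here, chosen after their values were seen. Tmem132d (26 of 26), Car10 (24 of 24), the splicing regulator Rbfox1 (20 of 20) and the kainate receptor gene Grik1 (16 of 16) had no WT peak at all. The adhesion genes Cntn1 and Nlgn1 had 16 of 16 with 1 WT peak each, Robo2 had 16 of 16 with 2, and Parp8 had 17 of 17 with 1. At the other end, 18 genes had no member. Esrrb, a nuclear receptor of rods, had 0 of 32, and 15 of its 38 distal WT peaks were absent from the KO list. Elovl4, the photoreceptor fatty acid elongase, had 0 of 17 and Pde6b, the beta subunit of rod phosphodiesterase, had 0 of 14. Ern1 and Gnb5 had 0 of 14, Ccdc6 and Fam222a 0 of 13 and Dmap1 0 of 11.

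Gene lists showed the same spread, from rod genes at the low end to genes of inner retinal neurons at the high end, with 45.9% over all distal KO peaks. For the rod markers 10 of 148 distal KO peaks were members (6.76%), while 62 of their 162 distal WT peaks (38.3%) were absent from the KO list, against 7.54% overall. For phototransduction genes 27 of 192 were members (14.1%) and 30.6% of the distal WT peaks were WT-only. The leading members of that list were mostly cone genes: Pde6h, the inhibitory subunit of cone phosphodiesterase, with 6 of 7, and the cone channel subunit Cngb3 with 5 of 6. Rgs9, which speeds the shut-off of transducin, had 4 of 16 and 10 WT-only peaks. Photoreceptor transcription factors stood at 30.1% (84 of 279), led by Rorb (16 of 20), Otx2 (15 of 31) and Thrb (13 of 40), a receptor of thyroid hormone needed for one cone opsin. Cone markers stood at 38.6%.

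Transcription factors of the inner retina stood at 68.9% (346 of 502), with at least 1 member in 39 of 39 genes. They were led by Zfhx3, Tcf4 and Prox1, a homeodomain factor of horizontal, bipolar and AII amacrine cells, which had 23 members of 25 distal KO peaks. Axon guidance and adhesion genes stood at 69.2% (508 of 734), with a member in 35 of 35 genes, led by Nrxn3, Ntm and Lsamp (29 of 37). Among marker lists, horizontal cell markers reached 80.5% (33 of 41), bipolar markers 62.9% (156 of 248), ganglion cell markers 58.7%, amacrine markers 57.3% and Müller glia markers 56.7% (55 of 97). Prox1 is itself 1 of the 7 horizontal markers, and it held 23 of their 33 members and 25 of their 41 distal KO peaks. Endothelial and pericyte markers both stood at 54.5%, RPE markers at 54.3% and astrocyte markers at 39.6%. Glial transcription factors stood at 53.4%, led by Nfib (19 of 25), Tcf7l2 (15 of 24) and Sox2 (12 of 17), which keeps Müller glia quiescent.

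Lists of injury and inflammation had shares near or below the 45.9% over all distal KO peaks. Gliosis and stress genes had 70 of 160 (43.8%), led by Cebpd, Cebpb and the endothelin receptor gene Ednrb with 7, 7 and 6 members. None of the Cebpd members was annotated to that gene alone. Genes of microglia and inflammation had 28 of 73 (38.4%), led by Runx1 with 8 and Irf8 with 4, of which 0 were annotated to Irf8 alone. Chromatin regulators had 126 of 341 (37%), led by Arid1b, a subunit of the BAF remodelling complex, with 27 of 67, and by Hdac4 and Hdac9 with 14 and 10. With the KO list limited to its widest peaks, an alternative chosen after seeing the data, the rod markers stood at 1.01%, the inner retina factors at 50.2% and the horizontal markers at 63.2%, with 23.6% over all distal peaks. Prox1 held 9 of the 12 horizontal marker members left there. There the gliosis and stress genes (26.3%) and the genes of microglia and inflammation (24.5%) stood slightly above the whole. No test applies to these shares, which come from 1 library per genotype.

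**Figure D3:**
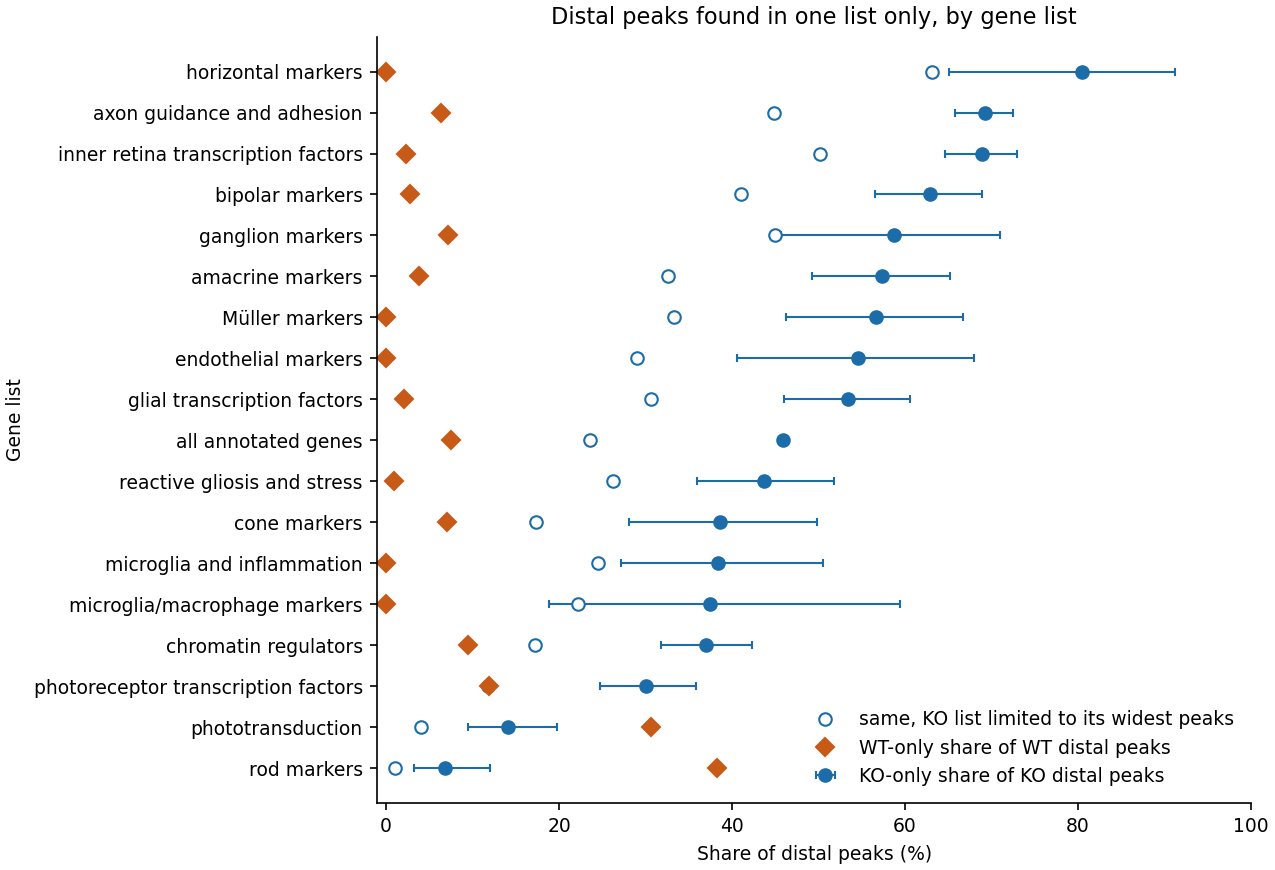
Each row is a gene list, with the KO-only percent of distal KO peaks as filled circles with exact 95% intervals, the same with the KO list limited to its widest peaks as open circles, and the WT-only percent of distal WT peaks as diamonds. The row of all annotated genes gives the background, and the pericyte, RPE and astrocyte marker lists are not drawn. Rod markers have the lowest KO-only share (6.76%) and the highest WT-only share (38.3%), and horizontal markers have the highest KO-only share (80.5%). Prox1 alone holds 23 of the 33 horizontal marker members.

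The RNA tables gave the cell classes in which these genes are active. They held 3747 wells, and 3746 passed a filter of at least 300 genes and at most 30% mitochondrial reads. The libraries held 12356586 to 182310499 reads, with a median of 25602.5 to 189067 reads per well. Clusters were called rod-like, cone-like, bipolar-like, Müller-like or amacrine-like from fixed markers, and smaller RPE-like, endothelial-like and microglia-like clusters were seen. No cluster took a horizontal or ganglion name. The amacrine-like cluster, of 161 cells, also had a high level of the horizontal markers, at 0.825 on a scale where the highest cluster is 1 for each marker, against 0.851 for its amacrine markers, and Calb1, a horizontal marker, was among its leading genes beside Gad1. Horizontal cells within that class were not told apart. Rod-like cells made up 58.9, 63 and 60.5% of wells in WT at 1, 3 and 6 months and 71.6, 51.1 and 57.1% in KO. Bipolar-like cells made up 14.8, 16.7 and 20.2% in WT and 11.7, 22.8 and 19.4% in KO. Neither share kept to 1 side of the other genotype. Chip positions, the row and column of a well, recurred between pairs of RNA libraries 0 to 136 times. Levels below are CPM of reads summed over the cells of a class in a library, for libraries with at least 10 such cells. The reads carry no molecular identifiers, so they are not independent molecules.

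Among the genes with most members, bipolar-like cells most often had the highest RNA level in WT retina. Of the 20, 18 were in the RNA tables and 17 reached 10 CPM in some class, averaged over WT libraries. The class with the highest level was bipolar-like for 14, amacrine-like for Zmiz1 and Nckap5, cone-like for Rora, and rod-like or Müller-like for 0, where bipolar-like cells led 19.3% of all annotated genes at that level. Gpc6, Foxn3, Zfhx3, Tenm4, Agap1 and Cacna2d3 were at least 2-fold above the next class. Others were close: Tcf4 stood at 407 CPM in bipolar-like and 403 CPM in Müller-like cells, and Zbtb20 at 803 and 747 CPM. Fgfr2 stayed under 10 CPM in every class. With cells assigned by their highest marker score in place of clusters, 13 were led by bipolar-like cells, 2 by amacrine-like, 1 by cone-like and 1 by Müller-like cells.

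In bipolar-like cells Cacna2d3 stood at 544, 354 and 562 CPM in WT at 1, 3 and 6 months and at 767, 198 and 218 CPM in KO. In rod-like cells it stood at 3.85, 31.3 and 6.80 CPM in WT and at 38.8, 40.2 and 25.6 CPM in KO. The bipolar levels of every library exceeded its rod levels, and in rod-like cells the KO library at 6 months lay below the WT library at 3 months. Gpc6 in bipolar-like cells was at 139, 220 and 196 CPM in WT and 321, 141 and 74.5 CPM in KO. Its rod levels were 0.0446, 0.463 and 11.5 CPM in WT and 23.2, 29.7 and 8.07 CPM in KO, where the genotypes overlap at 6 months. Foxn3 in rod-like cells was at 0.728, 4.01 and 1.22 CPM in WT and 39.8, 33.2 and 25.5 CPM in KO, with no overlap. Its bipolar levels were 257, 107 and 200 CPM in WT and 233, 206 and 63.2 CPM in KO.

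Prox1 was highest in bipolar-like cells too, at 445, 246 and 418 CPM in WT bipolar-like cells and 708, 343 and 286 CPM in KO. Its rod levels were 29.1, 11 and 36.7 CPM in WT and 73.8, 149 and 81.4 CPM in KO. Rora was spread over classes, with 448, 847 and 549 CPM in WT cone-like cells and 338, 378 and 379 CPM in WT rod-like cells. Its KO levels were 417, 463 and 300.3 CPM in cone-like and 305, 345 and 277 CPM in rod-like cells. Sox2 was led by Müller-like cells, at 168 and 173 CPM in the WT libraries at 1 and 6 months and 104, 134 and 109 CPM in KO. Only 9 Müller-like cells came from WT at 3 months, so that library was left out of that class. Cngb3 was led by cone-like cells, at 534, 239 and 624 CPM in WT and 565, 621 and 520 CPM in KO.

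**Figure D4:**
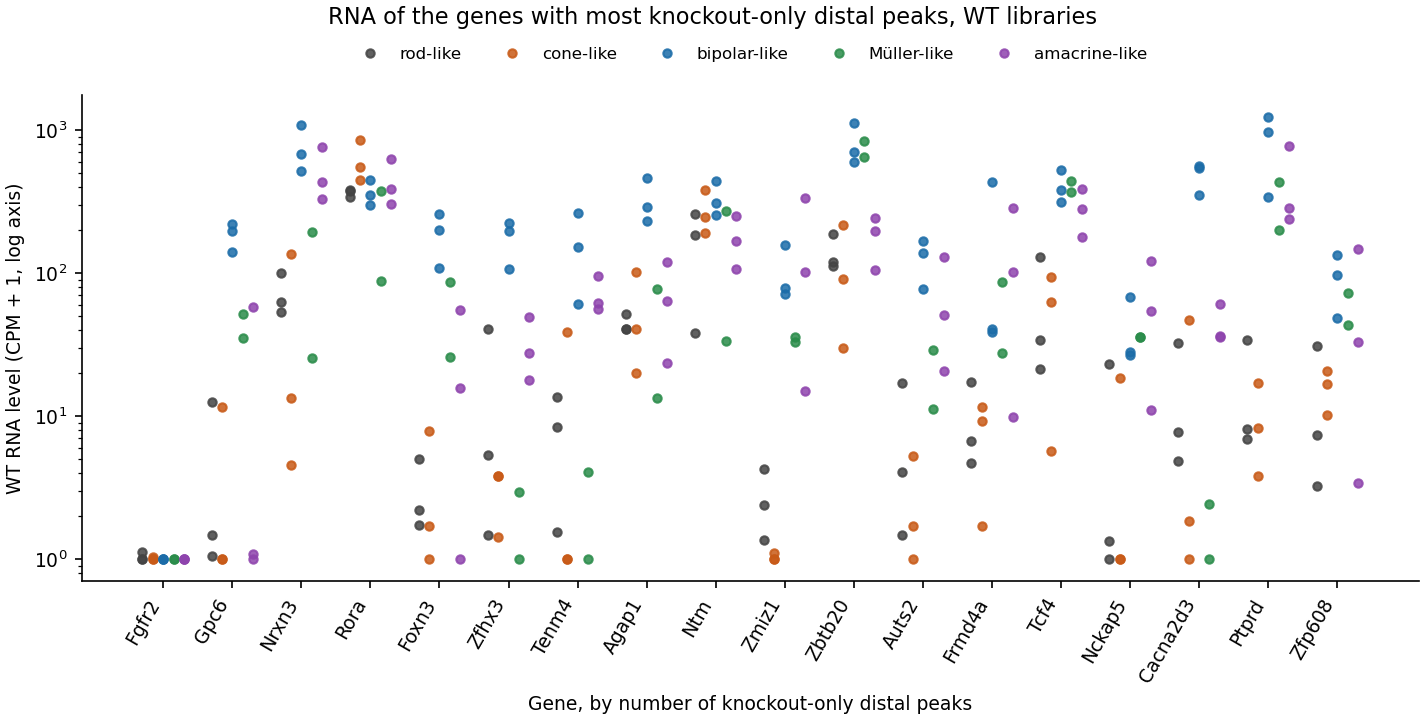
RNA level (CPM + 1, log axis) of the 18 genes with most members that were in the RNA tables; each point is 1 WT library in 1 cell class, and Müller-like cells have points from the libraries at 1 and 6 months. For Gpc6 and Cacna2d3 every bipolar-like point lies above every point of the other classes, and the mean for Rora is highest in cone-like cells.

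Beyond the leading genes the classes were more mixed. Of the 562 genes with 10 or more members that reached 10 CPM, 188 (33.5%) were highest in amacrine-like, 178 (31.7%) in bipolar-like, 130 (23.1%) in Müller-like, 44 (7.83%) in cone-like and 22 (3.91%) in rod-like cells. Over all 10180 annotated genes at that level the shares were 29.2, 19.3, 23.3, 15.8 and 12.4%. With cells assigned by marker score the counts were 154, 192, 143, 39 and 25, so the order of amacrine-like and bipolar-like cells depended on the typing. Taking genes at least 2-fold above the next class, the KO-only share of distal KO peaks was 26.8% for the 256 rod-led genes (380 of 1416 peaks) and 38.9% for cone-led genes. It was 47.9% for Müller-led, 52.1% for amacrine-led and 57.1% for the 592 bipolar-led genes (2685 of 4705 peaks). Bipolar-led genes had 4.60 members per gene and rod-led genes 1.48. The WT-only share of distal WT peaks was 14.4% for rod-led and 7.54% for cone-led genes, and 6.04, 6.58 and 6.43% for Müller-led, amacrine-led and bipolar-led ones. With the KO list limited to its widest peaks the KO-only shares were 10.3% for rod-led and 36% for bipolar-led genes. Fewer rod nuclei in the KO library and a change of chromatin within a cell type cannot be told apart in lists that pool all nuclei.

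Genotype was then compared in RNA by a fit across all genes, with edgeR's quasi-likelihood test on summed reads and age as a factor. The ages stand in for replicates, so the p-values measure the spread between single libraries, which may be technical. At a Benjamini-Hochberg adjusted p under 0.05 the test called 3 of 17339 genes over all wells (0.0173%), 19 of 14481 in rod-like cells (0.131%), 8 of 13363 in bipolar-like cells (0.0599%) and 3 of 14694 in Müller-like cells (0.0204%), all higher in KO. DESeq2 called 233, 1187, 316 and 400, of which 56, 203, 40 and 106 were lower in KO. Of the 20 genes with most members, 17 were tested in each fit and edgeR called 0. In simulated data with the spread estimated from these libraries, edgeR recovered none of the large changes put in. An absence of calls therefore does not show an absence of change. At an unadjusted p under 0.05 the counts were 0, 6, 0 and 0 of 17. The 6, in rod-like cells, were all higher in KO, where 8.67% of all genes tested were higher and 3.7% lower at that p. In all wells those shares were 2.5% and 1.52%, in bipolar-like cells 3.29% and 1.09%, and in Müller-like cells 0.735% and 0.429%. DESeq2 called 0, 6, 0 and 0 of the 17, where it called 1.49, 8.89, 2.74 and 2.77% of all genes it gave an adjusted p in the 4 fits.

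Among the 695 genes with 10 or more members, edgeR called 2 of 610 tested in rod-like cells (0.328%), Dapl1 and Trpm1, and 0 in the other 3 fits. At an unadjusted p under 0.05 there were 29, 135, 42 and 12 genes over all wells and in rod-like, bipolar-like and Müller-like cells, where 4.02, 12.4, 4.39 and 1.16% of all genes tested passed it. In rod-like cells 121 of the 135 were higher in KO. DESeq2 called 6, 136, 24 and 20 of the 695, which is 0.946, 23.3, 4.31 and 3.37% of those it gave an adjusted p, against 1.49, 8.89, 2.74 and 2.77% of all genes. The summed level of these genes in rod-like cells was 19449, 24906 and 25634 CPM in WT at 1, 3 and 6 months and 32425, 35770 and 29637 CPM in KO. Every KO library lay above every WT library. The same held in cone-like cells, at 25293.5, 26021 and 26909 CPM in WT and 31565, 32088 and 29200 CPM in KO. In bipolar-like cells the sums were 63099, 68237 and 66806 CPM in WT and 74547, 61560 and 51661 CPM in KO, and the genotypes overlapped. They overlapped in Müller-like and amacrine-like cells as well.

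In rod-like cells the fitted ratio rose with the number of members per gene. The median log2 KO/WT was 0.10 for genes with no member, 0.33 with 1, 0.45 with 2 to 4, 1.02 with 5 to 9 and 1.73 with 10 or more, against 0.36 over all genes tested. Of the genes with 10 or more members 80.2% had a higher fitted level in KO, against 60.7% of all. Genes with a mean of at least 10 CPM gave smaller medians, from -0.15 with no member to 0.73 with 10 or more. With the libraries of 1 age left out in turn, an alternative chosen after seeing the data, the median for 10 or more members lay between 1.31 and 2.09. Over all wells the medians were 0.05 and 0.15 at the ends, in bipolar-like cells 0.30 and 0.26 (-0.04 without the 3-month libraries), and in Müller-like cells 0.23 and 0.43. Within rod-like cells, genes with 10 or more members stood at -0.52 where they were rod-led (22 genes), at 0.33 where cone-led (44), 1.68 where bipolar-led (174), 1.92 where amacrine-led (186) and 2.12 where Müller-led (125). Over all genes of each class the medians were -0.62, -0.01, 0.31, 0.40 and 0.76.

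Markers of other cell types moved with this result. In rod-like cells 19 of 20 bipolar markers had a higher fitted level in KO and 1 was called, with summed levels of 515 to 975 CPM in WT libraries and 1398 to 3658 CPM in KO. For Müller markers it was 16 of 16 with 6 called, and sums of 1433 to 4027 CPM against 8966 to 15698 CPM. Amacrine markers were higher in 14 of 16 tested, with sums of 163 to 379 CPM against 474 to 526 CPM. Microglia and macrophage markers were higher in 10 of 10 tested, at 1.57 to 23.6 CPM against 19 to 96.2 CPM. Rod markers had a lower fitted level in 20 of 20, with 130754 to 142800 CPM in WT and 76790 to 110763 CPM in KO, and 0 were called. None of these lists had a marker at 0 in all rod-like libraries. Different clusters held most rod-like cells of the 2 genotypes: 1 cluster of 727 cells came mostly from WT, and 1 of 860 cells, with Edn2 among its leading genes, came mostly from KO at 1 and 3 months. Another cluster, of 633 cells, held 448 of the 500 rod-like KO cells at 6 months. On the scale where the highest cluster is 1 for each marker, its ganglion markers stood at 0.631 beside 0.693 for its rod markers. Ganglion markers stood at 0.214 and 0.327 in the clusters of 727 and 860 cells. The part of these markers and clusters in the result was not tested.

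**Figure D5:**
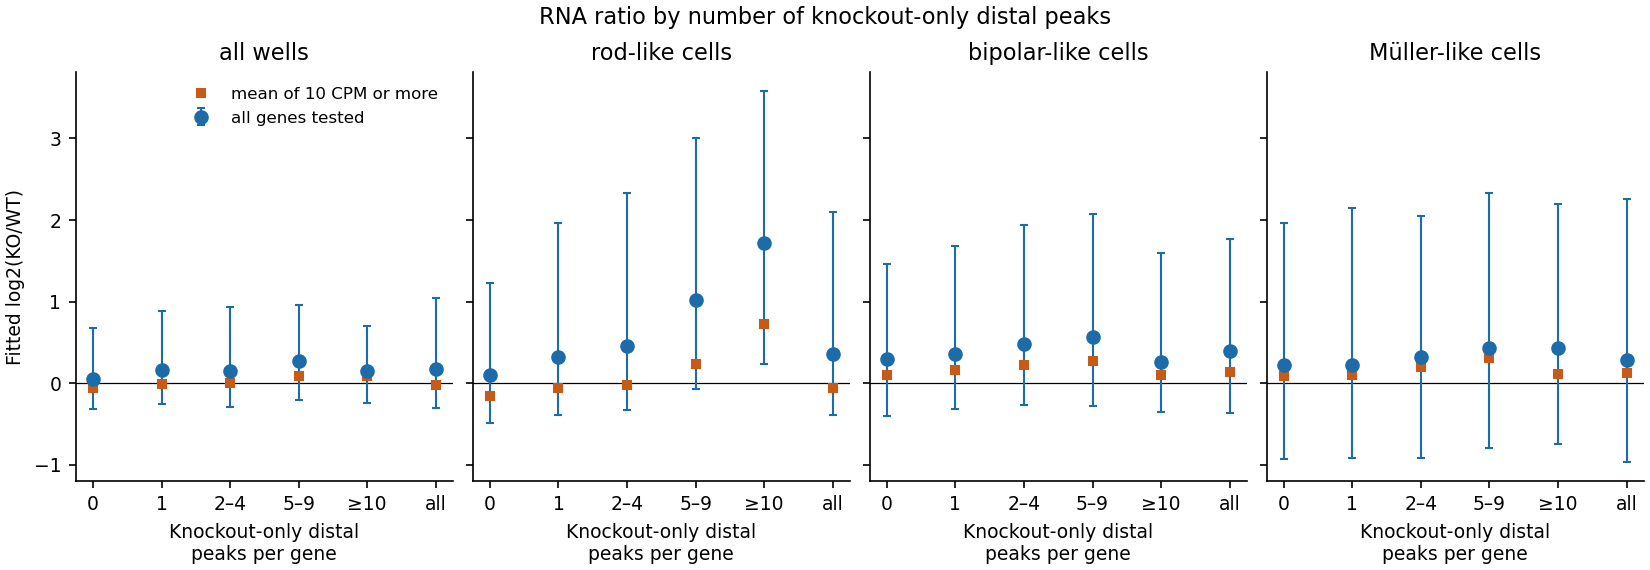
Median fitted log2 KO/WT of genes by number of KO-only distal peaks per gene, in the 4 fits; circles with bars are medians and quartiles of all genes tested, squares are medians of genes with a mean of 10 CPM or more, and the last position holds all genes. In rod-like cells the median goes from 0.10 with no member to 1.73 with 10 or more, and in bipolar-like cells from 0.30 to 0.26.

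The called genes with members were few. In rod-like cells 11 of the 19 had at least 1, which is 0.161% of the 6846 genes with a member that were tested, against 0.131% of all. Dapl1, with 10 members of 15 distal KO peaks, was at 15, 27.6 and 5.67 CPM in WT and 135, 204 and 127 CPM in KO (log2 3.11, SE 0.51, edgeR adjusted p = 0.0181). Trpm1, the cation channel of ON bipolar cells and itself one of the bipolar markers, also had 10 of 15. Its rod-like levels were 13.3, 102 and 51.2 CPM in WT and 154, 452 and 175 CPM in KO (log2 2.11, SE 0.38, edgeR adjusted p = 0.0364). In both genes the genotypes did not overlap. Without the age term edgeR's adjusted p was 0.172 for Dapl1 and 0.208 for Trpm1, and without the 1-month libraries it was 0.155 for Trpm1. Over the 6 alternatives their log2 values lay between 2.58 and 3.45 and between 1.74 and 2.39. Edn2, endothelin 2, which stressed photoreceptors are known to release, had 4 members and was at 9.73, 0 and 0.697 CPM in WT and 171, 40.7 and 31.2 CPM in KO, with an edgeR adjusted p of 0.0370 that went to 0.524 without the 1-month libraries. The others were Cnn3 with 8 members, Dkk3 with 7, Pdlim3 with 6, Prdx6 and Cd9 with 5, Gpm6a with 4, Rlbp1 with 3 and Spc25 with 1. All of them lost the call without the age term, and their highest adjusted p over the 6 edgeR or DESeq2 alternatives lay between 0.172 and 0.309. Dkk3, Rlbp1 and Spc25 are among the Müller markers, and the 8 called genes without a member included the haemoglobin genes Hbb-bs and Hba-a2.

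In bipolar-like cells too, markers of other cell types moved with the calls. Müller markers had a higher fitted level in KO in 15 of 16 with 6 called, with sums of 1883 to 3331 CPM in WT libraries and 8300 to 10881 CPM in KO, and rod markers in 19 of 20 with 0 called, with sums of 16469 to 38263 CPM and 41539 to 52160 CPM. Their part in the calls was not tested. Kdr, the receptor of vascular endothelial growth factor and one of the endothelial markers, had 9 members. In bipolar-like cells it was at 1.22, 3.67 and 2.72 CPM in WT and 89.6, 189 and 163 CPM in KO (log2 5.81, edgeR adjusted p = 0.00280), but the edgeR adjusted p was 0.276 without the 3-month libraries. Serpina3n, an acute-phase protease inhibitor of reactive glia, had 4 members and was at 0.170, 0.0809 and 0.0834 CPM over all wells in WT and 51.1, 56.6 and 24.7 CPM in KO (log2 8.29, SE 0.74, edgeR adjusted p = 0.00681). Over all wells it was called under all 6 alternatives, with edgeR or DESeq2 adjusted p of at most 0.0224.

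Among the fixed lists other than cell type markers, most RNA calls fell in the list of gliosis and stress genes. No inner retina transcription factor and no axon guidance or adhesion gene was called by edgeR in any of the 4 fits. As stated above, an absence of calls in these fits does not show an absence of change. In rod-like cells 12 of 36 inner retina factors tested and 7 of 31 adhesion genes were higher at an unadjusted p under 0.05 and 0 were lower, where 8.67% of all genes tested were higher and 3.7% lower. Their median log2 values were 2.30 and 2.17, against 0.36 over all genes tested. Phototransduction genes had 1 call in rod-like cells, the cone subunit gene Gnb3, which was higher in KO, and 14 of 31 were lower at the unadjusted p, against the same 3.7%. Of the gliosis and stress genes, 3 of 30 tested were called over all wells (C4b, Edn2 and Serpina3n), 2 of 27 in rod-like cells (Edn2 and Mt1), 1 of 26 in bipolar-like cells (Nupr1) and 3 of 29 in Müller-like cells (A2m, C4b and Serpina3n). Over all genes tested 0.0173, 0.131, 0.0599 and 0.0204% were called, and the list held every call over all wells and in Müller-like cells. The lists were chosen with earlier results of these data known, so this overlap is no independent finding. In Müller-like cells rod markers had a higher fitted level in KO in 18 of 20, cone markers in 11 of 12 tested and bipolar markers in 17 of 19 tested, and Müller markers in 1 of 16 (median log2 -0.62), with 0 called in each. Their part in those calls was not tested. Apoe was the 1 gene called from the list of microglia and inflammation, in rod-like and in bipolar-like cells, and no chromatin regulator was called. Several of these calls depended on the model. Without the age term edgeR called no gene in rod-like or Müller-like cells, with 1581 and 848 at an unadjusted p under 0.05. Without the 3-month libraries it called none in bipolar-like cells, with 395 at that p. Edn2 over all wells had an edgeR adjusted p of 0.0296, which was 0.815 without the age term and 0.478 without the 1-month libraries. In Müller-like cells the edgeR adjusted p without the age term was 0.152 for A2m and 0.0944 for Serpina3n.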

How the data were processed

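Per the labels' protocols, single retinal cells or nuclei were dispensed on ICELL8 chips for 3′ RNA libraries, and nuclei were processed on the 10x Chromium system for ATAC. The RNA tables hold raw read counts per Ensembl gene ID and well, as the authors deposited them. The submitters' processing notes name CASAVA, TopHat2, HTSeq, Seurat, Cell Ranger ATAC 1.1.0 and mm10 or GRCm38, without role or order. Per the file headers, the deposited peak lists give position, gene, distance and type, pooled over nuclei, with no score. The peak threshold is not given in the sources used here. Printed positions are 1-based mm10. The members and lists were chosen with earlier results of these data known.

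Peaks were compared in python 3.11.15 (pandas 2.3.3, numpy 2.4.6), with an overlap of 1 bp. A peak counted for each of its annotated genes, with peaks of a single gene as an alternative. Named genes are the 20 with most members and the 3 leading members of each of 8 lists, of which 1 gene is not reported here. Of 43628 gene IDs, 42461 matched a symbol. Wells were clustered in scanpy 1.11.5 (2000 variable genes without the named and mitochondrial genes, 30 principal components, 15 neighbours, Leiden resolution 1, igraph 0.11.9). A class name needed at least 3 markers, each in at least 10% of cells, and its 10 leading genes could not favour the markers of a different class. These settings were chosen after the clusters were seen, and no doublet caller was run. Reads were summed per class and library and tested with edgeR 4.0.16 (R 4.3.3, TMM, filterByExpr, age plus genotype), with DESeq2 1.42.0 as an alternative. The test was checked on simulated data. It recovered most of the large changes put in at a low assumed spread between libraries, and none at the spread estimated from these data. The 6 RNA libraries share no replicates within a genotype and age. Motifs within whole peaks need a genome and were not analysed here.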

Additional observations from a re-analysis of the deposited data

How the results depend on the processing

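Leaving out members within 500 bp of a WT peak, or the sex chromosomes, moved no count of members by over 1.5 times. Counting a peak as KO-only where under 50% of it was covered gave 55.1% of distal KO peaks, a median width of 386 bp, a distance of 32515 bp and 70.7% within RefSeq spans. KO peaks of 500 bp or wider gave 6218 members (19.3%), 625 bp, 36455 bp, 72.3%, and 26 genes with 10 or more. The widest KO peaks, as many as the WT list, gave 9716 members (23.6%), 541 bp, 36621 bp, 70.9% and 66 such genes. Of the 20 leading genes, 18, 13 and 16 were among the 20 under these 3 settings. Called genes rose to 233, 1187, 316 and 400 with DESeq2 over all wells and in rod-like, bipolar-like and Müller-like cells, and were 5, 136 and 23 in the first 3 without the filter on low counts. Without the age term they were 1, 0, 2 and 0. Without both libraries of 1 age they ranged from 3 to 17, from 7 to 142 and from 0 to 24, the lowest in rod-like cells without the 1-month and in bipolar-like cells without the 3-month libraries. In the order 1, 3 and 6 months left out, the counts were 7, 3 and 17 over all wells, 7, 106 and 142 in rod-like cells, and 24, 0 and 16 in bipolar-like cells. The median log2 ratio of genes with 10 or more members in rod-like cells was 0.73 at a mean of 10 CPM or more, and with 1 age left out it ranged from 1.31 to 2.09 there, from 0.03 to 0.20 over all wells and from -0.04 to 0.39 in bipolar-like cells, and it was 0.29 in Müller-like cells. The cause of these moves was not tested. Müller-like fits without the 1- or 6-month libraries had no residual degrees of freedom and were not run, nor were the motif counts in whole peaks, for which no genome was used. The main fits pair WT and KO libraries by age, except in Müller-like cells at 3 months, where only the KO library entered. With age in the fit that library carried no information on genotype, so leaving it out is no check on the Müller-like result. The counts without the age term are the unpaired ones. The labels give no replicate numbers to pair by. No sequencing depth is known for the ATAC lists, so weak peaks cannot be told from absent ones.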
